A study of Rattus norvegicus with 24 samples.

Results

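The genes described here make, sense, take up, store and export cholesterol. The list names 31 genes, chosen by their place in the pathway, and every probe set annotated to exactly 1 of them was taken. Of these, 29 genes had at least 1 such probe set on the array and 53 probe sets entered the analysis, among 31042 probe sets tested and 14217 genes with a probe set of their own. Hmgcs1 and Npc1 had none in the annotation used and have no value here. The synthesis steps hold 30 probe sets for 18 genes, and the sensing, transport, uptake, storage and export genes, together called the handling genes below, hold 23 probe sets for 11 genes.

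RNA came from abdominal mammary gland pairs of prepubertal male and female Sprague-Dawley rats and was read on 24 Affymetrix arrays. Osmotic pumps under the skin delivered 17β-estradiol, the main ovarian estrogen, at 0, 0.1, 1 or 10 µg/kg/day from weaning at postnatal day 21 until the glands were taken at postnatal day 33. Each sex and dose formed a group of 3 arrays, 8 groups in all, and the groups at 0 are called controls. All animals carried pumps per the study's description, and the labels name no genotype other than the strain. Nothing in the labels ties an array to an animal of its own, so p-values reflect only how far these arrays differ, which may be partly technical.

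Cholesterol is built from acetyl-CoA through mevalonate, the isoprenoid diphosphates, squalene and lanosterol. When membranes hold little sterol, the carrier protein Scap escorts SREBP-2, the product of Srebf2, out of the endoplasmic reticulum, and SREBP-2 then switches on the synthesis genes and Insig1. Insig proteins hold Scap back when sterol is plentiful, and oxysterols acting on liver X receptors switch on the exporters Abca1 and Abcg1 and also Mylip, which limits uptake. In the mammary gland these genes are used by fat cells of the stroma, which store sterol beside triglyceride, and by growing and secreting epithelium.

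The deposited values appear centred for each probe set within each sex, and the arrays over which the centre was taken are not known, so 0 is only a reference point shared by the arrays of a sex. They give no level of expression, so sexes or genes cannot be compared in level and absent markers cannot be seen. Differences are on the scale of the deposited log values, taken as log2. Markers of other cells moved with dose. The mean over 17 of 18 white adipocyte markers lay between 0.26 and 0.55 in the female controls and between -0.47 and -0.25 at 10, and between 0.41 and 0.56 in the male controls and between -0.86 and -0.62 at 10. At 10 against the controls, 15 of 25 adipocyte probe sets fell in females and 23 of 25 in males, at an adjusted p under 0.05. Of all probe sets, 1.05% fell in females and 9.64% in males. The mean over 15 of 16 hepatocyte markers was 2.29 in replicate 1 of the female controls, 1.28 and 2.30 in replicates 2 and 3 of the male controls, 0.77 in female replicate 7 at 1, 1.00 in male replicate 7 at 1, and no higher than 0.16 elsewhere. By the same threshold, luminal epithelial markers rose in 3 of 15 probe sets in females and 5 of 15 in males at 10. Keratinocyte markers rose in 0 of 12 and 8 of 12. Of all probe sets, 0.812% rose in females and 7.81% in males, and falls among these markers are not given here. The part of these last markers in the results was not tested. In whole glands, fewer cells of a type and less RNA per cell cannot be told apart.

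Cholesterol synthesis genes were lower at 10 µg/kg/day in the female glands, while the handling genes had a median difference near 0. Against the controls, 9 of the 30 synthesis probe sets fell, from 7 genes, and 0 rose; among the 23 handling probe sets Insig1 fell and Mylip rose, the 1 rise among the members where 0.812% of all probe sets rose. In all, 20.8% of the member probe sets were called at an adjusted p under 0.05, against 1.86% of all probe sets tested. The share called lower was 18.9% of the members and 1.05% of all probe sets. The median difference was -0.27 over the synthesis probe sets, -0.016 over the handling probe sets and -0.0053 over all probe sets. Of the synthesis probe sets, 27 of 30 lay below 0, compared with 51.5% of all probe sets. In 18 synthesis probe sets the 3 arrays at 10 all lay below the 3 controls, a pattern seen in 10.2% of all probe sets.

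Male glands gave a mixed picture at 10. Of 53 member probe sets 10 fell and 4 rose, or 26.4%, against 17.5% of all probe sets tested, so the members' share was nearer to the background than in females. Among the synthesis probe sets 7 fell and 2 rose, with a median difference of -0.22, and among the handling probe sets 3 fell and 2 rose, with a median of 0.0044. Of all probe sets in males, 9.64% fell and 7.81% rose. The 3 male arrays at 10 all lay below the 3 controls in 12 synthesis probe sets, compared with 18.9% of all probe sets.

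These counts changed with the samples kept, with a covariate of adipocyte markers and, in males, with a covariate for a sign of RNA quality. With the mean of the adipocyte markers as a covariate, 0 members were called at 10 in either sex, as were 0 of all probe sets tested. The adipocyte mean did not overlap between the controls and 10 in either sex, so its part and that of dose cannot be told apart here. The difference between the 3′ and 5′ probe sets of beta-actin, that sign, ranged from -0.56 to -0.059 in the male controls and from -0.021 to 0.16 in males at 10, without overlap. With it as a covariate 1 member was called in males at 10, Tm7sf2, and 2.38% of all probe sets. In females it ranged from 0.018 to 0.063 in the controls and from -0.053 to 0.010 at 10, also without overlap. With the covariate 12 members were called there, with 2.51% of all. In each sex the part of this sign and that of dose cannot be told apart. Without the 3 arrays whose hepatocyte mean exceeded 1, 4 members were called in females, all of them synthesis probe sets that fell, where 0.441% of all probe sets were called. That setting left 1 male control, replicate 1, whose spread was taken from the other groups. With an SD of 0.40 it was 1 of the 2 widest arrays. Its actin difference, -0.56, was the lowest of the male controls. Any male call in that fit rests on this 1 array. The synthesis medians were then -0.25 in females and -0.14 in males. In females the count fell to 5 of 53 when replicate 11 at 10 was left out, and to 6 without control replicate 1, control replicate 3 or replicate 10 at 10. In males it fell to 6 without control replicate 1 or replicate 11 at 10. The shares of all probe sets called without these arrays are not given here, so these counts cannot be set against the background.

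**Figure D1:**
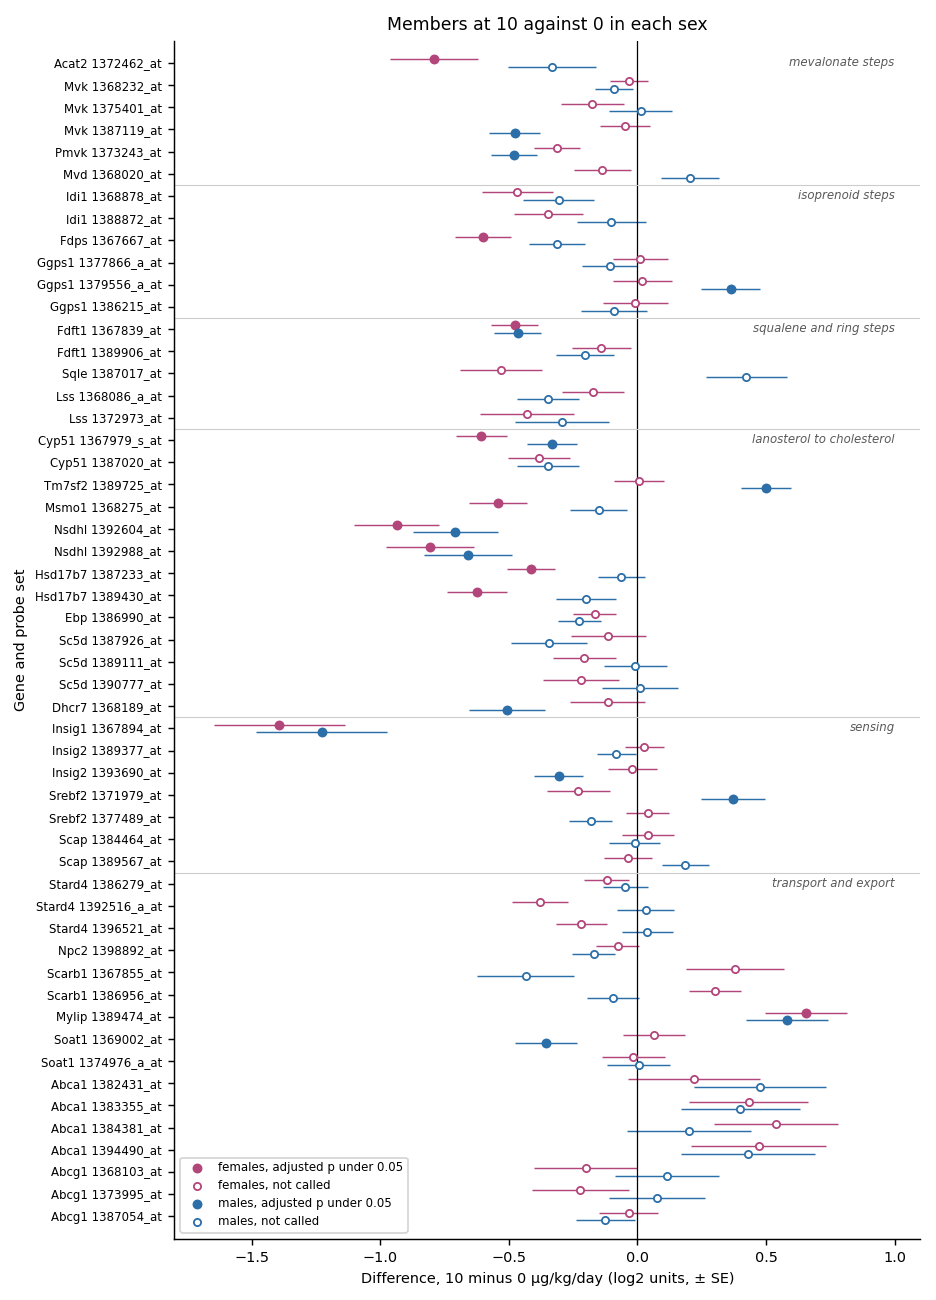
Difference between 10 and 0 µg/kg/day (log2 units, with 1 SE) for each of the 53 member probe sets, in females and males, ordered by pathway step. Filled points passed an adjusted p under 0.05; Insig1 lies farthest left in both sexes, at -1.39 and -1.23, and the female points of the last steps from lanosterol lie mostly left of 0.

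The plot of differences by pathway step shows female calls in each stretch of the pathway. In females 6 of 13 probe sets fell from lanosterol to cholesterol, from 4 of 8 genes. The mevalonate, isoprenoid and squalene steps gave 1 fallen probe set each, among 6, 6 and 5 probe sets of 4, 3 and 3 genes, and the steps were not tested against each other. In males the fallen probe sets numbered 2 of 6 in the mevalonate steps, 0 of 6 in the isoprenoid steps, 1 of 5 in the squalene steps and 4 of 13 from lanosterol to cholesterol.

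Promoters are shown for 5 of the 7 genes that fell in females and had a promoter entry, since members that moved together can be compared at their start sites. The 5 are those with a match to CCAAT. Those of Acat2 and Cyp51, without a match, are not printed. Each printed promoter runs from 250 bases before to 50 bases after the start of transcription. It is written 5′ to 3′ on the gene's strand and comes from RefSeq on GRCr8. Capitals mark CCAAT, or ATTGG where the box lies on the other strand. Positions are chr4:8057720-8058019 on the minus strand for Insig1, chrX:155817110-155817409 on the plus strand for Nsdhl, chr13:84722705-84723004 on the minus strand for Hsd17b7, chr2:176804767-176805066 on the minus strand for Fdps and chr16:29746863-29747162 on the plus strand for Msmo1.
Insig1: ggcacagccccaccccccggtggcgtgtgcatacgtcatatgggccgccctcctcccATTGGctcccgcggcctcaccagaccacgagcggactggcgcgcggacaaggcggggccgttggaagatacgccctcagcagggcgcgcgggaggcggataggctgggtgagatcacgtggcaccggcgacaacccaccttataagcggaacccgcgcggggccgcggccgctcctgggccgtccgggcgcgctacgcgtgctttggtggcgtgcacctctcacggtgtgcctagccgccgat
Nsdhl: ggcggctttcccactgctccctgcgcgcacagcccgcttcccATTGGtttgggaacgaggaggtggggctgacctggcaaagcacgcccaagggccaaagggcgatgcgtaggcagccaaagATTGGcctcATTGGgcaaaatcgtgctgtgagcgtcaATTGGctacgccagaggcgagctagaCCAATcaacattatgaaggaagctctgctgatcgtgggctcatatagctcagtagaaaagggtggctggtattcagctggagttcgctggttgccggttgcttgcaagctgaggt
Hsd17b7: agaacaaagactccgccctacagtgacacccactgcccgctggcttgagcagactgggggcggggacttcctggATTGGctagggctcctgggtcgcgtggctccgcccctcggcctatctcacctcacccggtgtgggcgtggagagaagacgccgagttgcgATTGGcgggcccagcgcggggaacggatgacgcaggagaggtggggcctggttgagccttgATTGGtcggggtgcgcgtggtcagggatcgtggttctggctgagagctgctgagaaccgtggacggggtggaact
Fdps: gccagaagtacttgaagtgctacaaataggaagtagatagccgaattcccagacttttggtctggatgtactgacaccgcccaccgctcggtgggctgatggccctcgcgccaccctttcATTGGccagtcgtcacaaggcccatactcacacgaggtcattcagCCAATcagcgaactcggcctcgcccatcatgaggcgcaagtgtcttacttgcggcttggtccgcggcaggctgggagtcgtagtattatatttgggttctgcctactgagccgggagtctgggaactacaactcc
Msmo1: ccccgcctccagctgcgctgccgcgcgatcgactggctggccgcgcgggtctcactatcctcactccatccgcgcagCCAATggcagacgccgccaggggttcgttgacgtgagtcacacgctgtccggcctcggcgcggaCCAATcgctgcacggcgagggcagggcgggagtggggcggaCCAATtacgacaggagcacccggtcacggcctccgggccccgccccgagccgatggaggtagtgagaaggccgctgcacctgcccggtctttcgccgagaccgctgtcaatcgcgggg
NF-Y, a general activator that binds the CCAAT box, works beside SREBP-2 at many sterol genes. Nsdhl holds 5 matches, Hsd17b7 and Msmo1 3 each, Fdps 2 and Insig1 1, while the windows of Acat2 and Cyp51, which also fell in females, hold none. The box was found on either strand in 18 of the 23 members with a promoter in the table, or 78.3%, and in 37.5% of all 33469 promoters of the same length. It was in 12 of 15 synthesis promoters and 6 of 8 handling promoters. Among the members that fell in females it was in 5 of 7, or 71.4%, which is not above the share of all members. The sterol regulatory element was searched as TCACNCCAC on both strands, and these letters were in 0 of the 23 member windows and in 1.12% of all promoters. A match is only a run of letters, and the absence of one says nothing of binding. Abcg1, Fdft1, Pmvk, Scarb1, Sqle and Stard4 had no entry.

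Among the mevalonate steps, Acat2 fell in females and Pmvk and Mvk in males. Acat2 makes acetoacetyl-CoA from acetyl-CoA. Female values were 0.47, 0.27 and 0.47 in the controls, 0.035, -0.035 and -0.042 at 0.1 µg/kg/day, 0.25, 0.47 and -0.34 at 1, and -0.48, -0.28 and -0.41 at 10. Male values were -0.20, 0.11 and 0.11 in the controls, -0.48, 0.14 and 0.073 at 0.1 µg/kg/day, -0.073, -0.30 and -0.40 at 1, and -0.45, -0.19 and -0.32 at 10. All female arrays at 10 lay below the controls, 1 array at 1 (replicate 9, -0.34) lay with them, and in males the controls and the arrays at 10 overlapped. In females the difference was -0.79 ± 0.17 (SE), a 1.73-fold fall with an adjusted p of 0.0209 by limma. The call was kept in 1 of 6 fits that left out an array: it was lost without control replicate 1 or 3 or without replicate 10, 11 or 12 at 10, with differences from -0.86 to -0.75. The male difference was -0.33 and was not called.

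Pmvk, phosphomevalonate kinase, was tight in the male arrays: 0.16, 0.15 and 0.18 in the controls, -0.15, -0.016 and -0.14 at 0.1 µg/kg/day, -0.21, -0.18 and -0.23 at 1, and -0.21, -0.41 and -0.33 at 10. Male controls sat between 0.15 and 0.18, and every male array at 1 and 10 was below them. The difference was -0.48 ± 0.090 at 10 (adjusted p 0.00134 by limma) and -0.37 at 1 (adjusted p 0.0314). The call at 10 was kept with each array left out; that at 1 was lost with any of its 6 arrays left out. At 10 the difference was -0.32 with the actin covariate (adjusted p 0.153) and -0.0029 with the adipocyte covariate (adjusted p 0.999), and neither was called. In females the values were 0.36, 0.25 and 0.16 in the controls, 0.33, -0.088 and -0.056 at 0.1 µg/kg/day, -0.073, -0.0047 and -0.092 at 1, and -0.048, -0.12 and 0.0047 at 10. Females at 10 also lay below their controls, and the difference of -0.31 had an adjusted p of 0.0867.

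Mvk, mevalonate kinase, gave 1 call among 3 probe sets. Probe set 1387119_at read 0.26, 0.25 and 0.25 in the controls, 0.014, 0.25 and 0.17 at 0.1 µg/kg/day, -0.0069, 0.085 and -0.082 at 1, and -0.55, -0.076 and -0.058 at 10 in males. It read 0.00090, -0.055 and 0.028 in the controls, 0.14, 0.15 and 0.073 at 0.1 µg/kg/day, 0.10, -0.077 and -0.058 at 1, and -0.044, -0.047 and -0.079 at 10 in females. Male controls lay between 0.25 and 0.26 and all arrays at 10 were lower, 1 of them, replicate 10, by far the most. The male difference was -0.48 ± 0.099 (adjusted p 0.00277 by limma) and the call held with each array left out, at -0.32 without replicate 10 at 10. The other probe sets differed by -0.092 and 0.013 in males, and the mean over the 3 was not called. Mvd, which makes isopentenyl diphosphate, differed by -0.14 in females and 0.21 in males, with no call.

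Of the isoprenoid steps, Fdps fell in females. Fdps makes farnesyl diphosphate, the branch point between sterols, prenylated proteins and other isoprenoids. Its female values were 0.21, 0.14 and 0.28 in the controls, 0.17, 0.0090 and -0.0090 at 0.1 µg/kg/day, -0.011, 0.052 and -0.33 at 1, and -0.27, -0.44 and -0.47 at 10. Its male values were -0.011, 0.060 and 0.27 in the controls, -0.24, -0.0035 and 0.087 at 0.1 µg/kg/day, 0.0035, -0.18 and -0.12 at 1, and -0.34, -0.20 and -0.079 at 10. In females the group means stepped down with each dose, and the arrays at 10 lay below all controls and all but 1 array at the middle doses, replicate 9 at 1. Between 10 and 0 it differed in females by -0.60 ± 0.11, a 1.52-fold fall (adjusted p 0.00825 by limma), called with each array left out. Without the arrays of a hepatocyte mean above 1 it was still called, at -0.60 (adjusted p 0.0466 by limma). Without those above 0.5 it was not called (adjusted p 0.0718 by limma). The call was also lost with only the compared groups in the fit and with the adipocyte covariate, at -0.36 with the latter. Male arrays at 10 were also all below their controls, and the difference of -0.31 was not called. Idi1, the isomerase before Fdps, differed by -0.47 and -0.35 in females on its 2 probe sets and by -0.31 and -0.10 in males, with no call. Ggps1, which makes geranylgeranyl diphosphate for protein prenylation, rose in males on 1 of 3 probe sets, by 0.36 (adjusted p 0.0372). That call was lost without male control replicate 1 or any array at 10, with differences down to 0.24, and the other 2 probe sets gave -0.11 and -0.091.

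Fdft1, squalene synthase, commits farnesyl diphosphate to sterol and fell in both sexes on probe set 1367839_at. Female values were 0.30, 0.13 and 0.28 in the controls, 0.11, -0.023 and -0.24 at 0.1 µg/kg/day, 0.093, 0.026 and -0.056 at 1, and -0.19, -0.29 and -0.24 at 10. Male values were 0.12, 0.13 and 0.35 in the controls, -0.15, 0.036 and 0.078 at 0.1 µg/kg/day, -0.036, -0.071 and -0.16 at 1, and -0.37, -0.21 and -0.22 at 10. All 3 arrays at 10 lay below all 3 controls in each sex. The differences were -0.48 ± 0.092 in females (adjusted p 0.0107) and -0.46 ± 0.092 in males (adjusted p 0.00192), both by limma. In males the call held with each array left out; in females it was lost without control replicate 1 or without replicate 11 at 10, with differences from -0.53 to -0.45 over the 6 fits. The second probe set differed by -0.14 and -0.21, with no call, although the 2 followed each other across arrays within groups (r = 0.75, 24 arrays of shared RNA). Without the arrays of high hepatocyte signal the difference on 1367839_at was -0.45 in females (adjusted p 0.0645 by limma). In males, where that left 1 control, replicate 1, it was -0.38.

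Sqle, squalene epoxidase, a rate-limiting oxygenase, went opposite ways in the sexes. The female arrays read 0.074, 0.13 and 0.33 in the controls, -0.036, 0.18 and 0.40 at 0.1 µg/kg/day, 0.023, -0.023 and -0.45 at 1, and -0.45, -0.41 and -0.19 at 10. The male arrays read -0.29, -0.40 and 0.22 in the controls, -0.0094, -0.022 and 0.30 at 0.1 µg/kg/day, 0.16, -0.18 and -0.0011 at 1, and 0.15, 0.32 and 0.33 at 10. Females at 10 were all below their controls, whereas males at 10 were above 2 of their 3 controls and overlapped the third. Neither change alone was called, at -0.53 ± 0.16 in females (adjusted p 0.0985) and 0.42 ± 0.16 in males (adjusted p 0.0729). The difference between the sexes, 0.95 ± 0.22, was called (adjusted p 0.0414 by limma), the only call among 53 members against 1.28% of all probe sets. It was kept in 2 of 12 fits that left out an array, with differences from 0.84 to 1.14: it was lost without female control replicate 2 or 3, male control replicate 1 or 2, or any array at 10. Lss, which closes the ring to lanosterol, differed by -0.17 and -0.43 in females and -0.35 and -0.29 in males, with no call.

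From lanosterol to cholesterol, Cyp51, the lanosterol demethylase, fell in both sexes. On probe set 1367979_s_at the female values were 0.41, 0.38 and 0.33 in the controls, 0.064, -0.069 and 0.11 at 0.1 µg/kg/day, -0.0079, 0.0079 and -0.27 at 1, and -0.17, -0.22 and -0.31 at 10. The male values were 0.13, -0.0049 and 0.36 in the controls, -0.033, -0.029 and 0.11 at 0.1 µg/kg/day, 0.0049, -0.28 and -0.098 at 1, and -0.093, -0.28 and -0.14 at 10. Female controls lay above every treated female array, and the arrays at 10 lay below all but 1 at the middle doses, replicate 9 at 1. The female difference was -0.61 ± 0.098, a 1.52-fold fall (adjusted p 0.00374 by limma), and the call held with each array left out and in 12 of 13 other settings, all but the adipocyte covariate. The male difference was -0.33 ± 0.098 (adjusted p 0.0261 by limma). That call was lost without control replicate 1 or 3 or without replicate 11 or 12 at 10, with differences from -0.41 to -0.23. It was kept in 5 of 13 other settings, and was lost with each covariate and with quantile normalization. The second probe set gave -0.38 and -0.35, with no call.

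Nsdhl and Hsd17b7 act together in removing methyl groups from the sterol ring, after Msmo1. Nsdhl fell on both probe sets in both sexes. On 1392604_at the female values were 0.56, 0.34 and 0.42 in the controls, 0.22, -0.45 and -0.34 at 0.1 µg/kg/day, 0.097, 0.34 and -0.33 at 1, and -0.49, -0.63 and -0.37 at 10. The male values were 0.35, 0.38 and 0.53 in the controls, -0.27, -0.14 and -0.0022 at 0.1 µg/kg/day, -0.13, -0.46 and -0.35 at 1, and -0.13, -0.48 and -0.27 at 10. Every male array at a dose above 0 was below every male control, and in females the arrays at 0.1 and 1 were split, with 3 near the arrays at 10 and 3 nearer the controls. Nsdhl fell 1.91-fold in females (-0.94 ± 0.17, adjusted p 0.00653) and 1.63-fold in males (-0.71 ± 0.17, adjusted p 0.00645). Probe set 1392988_at read 0.50, 0.17 and 0.31 in the controls and -0.44, -0.60 and -0.39 at 10 in females and 0.40, 0.13 and 0.40 in the controls and -0.25, -0.45 and -0.34 at 10 in males, with differences of -0.81 and -0.66. The first probe set stayed called at 10 with each array left out. The second was lost in females without control replicate 1 or 3 or replicate 10 or 11 at 10 (-0.88 to -0.72), and in males without control replicate 1 or replicate 11 at 10 (-0.75 to -0.61). Without the arrays of high hepatocyte signal 1392604_at differed by -0.87 in females (adjusted p 0.0625 by limma). In males, where that left 1 control, replicate 1, it differed by -0.64.

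Hsd17b7 reduces the keto group left by that step, and is also known to convert estrone to estradiol. It fell in females on both probe sets. Probe set 1389430_at read 0.21, 0.30 and 0.27 in the controls, 0.17, -0.062 and -0.13 at 0.1 µg/kg/day, 0.026, 0.18 and -0.36 at 1, and -0.35, -0.41 and -0.33 at 10 in females. In males it read -0.049, -0.0054 and 0.17 in the controls, -0.049, 0.0054 and 0.20 at 0.1 µg/kg/day, -0.035, -0.058 and 0.016 at 1, and -0.046, -0.35 and -0.081 at 10. Female arrays at 10 lay between -0.41 and -0.33 and below all controls, while the male ends of the range overlapped. The female differences were -0.62 ± 0.12 (adjusted p 0.00914) and, on 1387233_at, -0.41 ± 0.092 (adjusted p 0.0245). The first was called with each array left out; the second was kept only without control replicate 2, with differences from -0.51 to -0.31. Male differences were -0.20 and -0.063, with no call.

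Msmo1, the methyl sterol monooxygenase, fell in females. The female values were -0.0041, 0.16 and 0.27 in the controls, 0.051, 0.066 and 0.0041 at 0.1 µg/kg/day, -0.015, 0.066 and -0.26 at 1, and -0.45, -0.48 and -0.26 at 10. Those of males were 0.098, -0.080 and 0.29 in the controls, 0.17, -0.013 and 0.14 at 0.1 µg/kg/day, 0.29, -0.060 and 0.0067 at 1, and -0.16, -0.026 and 0.036 at 10. Females at 10 lay below all controls; males at 10 overlapped theirs. Its female difference was -0.54 ± 0.11 (adjusted p 0.0166 by limma), lost without control replicate 2 or 3 or without replicate 10 or 11 at 10, with differences from -0.62 to -0.48. It was still called without the arrays of high hepatocyte signal. The male difference was -0.15, with no call.

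Tm7sf2, a sterol reductase that works just after Cyp51, rose in males, where Cyp51 and Nsdhl fell. In males it read -0.14, -0.29 and -0.073 in the controls, -0.31, -0.15 and -0.18 at 0.1 µg/kg/day, 0.11, -0.051 and -0.055 at 1, and 0.45, 0.13 and 0.42 at 10. In females it read -0.061, 0.11 and -0.13 in the controls, 0.16, -0.00099 and 0.00099 at 0.1 µg/kg/day, 0.069, -0.19 and -0.13 at 1, and 0.057, -0.026 and -0.098 at 10. Males at 10 lay above every other male array, and the female groups at 0 and 10 overlapped. The male difference was 0.50 ± 0.097 (adjusted p 0.00177 by limma), called with each array left out and in 12 of 13 other settings, all but the adipocyte covariate. The female difference was 0.0073, with a 95% interval of -0.20 to 0.21. The difference between the sexes was 0.49 and was not called (adjusted p 0.0778).

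Dhcr7, which carries out the last reduction to cholesterol, fell in males. Male values were 0.30, 0.20 and 0.43 in the controls, -0.36, -0.093 and 0.22 at 0.1 µg/kg/day, 0.17, -0.071 and -0.020 at 1, and -0.16, -0.17 and -0.27 at 10. Female values were 0.42, -0.024 and 0.29 in the controls, -0.36, -0.057 and -0.47 at 0.1 µg/kg/day, -0.049, 0.070 and -0.32 at 1, and 0.29, 0.024 and 0.024 at 10. Males at 10 lay below their controls, whereas females at 10 overlapped theirs. The male difference was -0.51 ± 0.15 (adjusted p 0.0228 by limma), lost without control replicate 1 or 3 or without replicate 11 or 12 at 10, with differences from -0.56 to -0.45. The female difference was -0.12, with a 95% interval of -0.42 to 0.19. Ebp, a sterol isomerase, differed by -0.17 and -0.23 in females and males. The 3 probe sets of Sc5d, a sterol desaturase, differed by -0.22 to -0.11 in females and -0.34 to 0.0092 in males, and neither gene was called.

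Among the sensing genes, Insig1 showed the largest difference of any member in both sexes. The female values were 0.40, 0.47 and 0.52 in the controls, 0.26, -0.65 and -0.68 at 0.1 µg/kg/day, 0.38, 0.41 and -0.65 at 1, and -0.91, -1.04 and -0.84 at 10. The male values were 0.53, 0.33 and 0.59 in the controls, -0.52, -0.055 and 0.044 at 0.1 µg/kg/day, -0.044, -0.48 and -0.72 at 1, and -0.66, -0.74 and -0.82 at 10. Controls of both sexes lay between 0.33 and 0.59 and arrays at 10 between -1.04 and -0.66. The female arrays at 0.1 and 1 fell on both sides, with replicates 4, 7 and 8 near the controls and replicates 5, 6 and 9 near the arrays at 10, while every treated male array was below every male control. Insig1 fell 2.63-fold in females (-1.39 ± 0.25, adjusted p 0.00825) and 2.34-fold in males (-1.23 ± 0.25, adjusted p 0.00286), by limma. The calls held with each array left out. Without the 3 arrays of high hepatocyte signal the difference was -1.43 in females (adjusted p 0.0539 by limma). In males, where that left 1 control, replicate 1, it was -1.27. With the adipocyte mean as a covariate the differences were -0.33 in females and 0.48 in males, the sign turned, and neither was called. With the actin covariate the male difference was -0.86 (adjusted p 0.200) and was not called.

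Insig2, the second Insig protein, was called in males alone. Probe set 1393690_at read 0.22, -0.034 and -0.17 in the controls, 0.0098, -0.22 and -0.10 at 0.1 µg/kg/day, 0.25, 0.063 and -0.10 at 1, and 0.018, -0.015 and -0.054 at 10 in females. In males it read 0.20, 0.11 and 0.22 in the controls, 0.033, 0.00037 and 0.058 at 0.1 µg/kg/day, -0.16, -0.18 and -0.17 at 1, and -0.13, -0.23 and -0.010 at 10. The female groups at 0 and 10 overlapped, with a difference of -0.021 and a 95% interval of -0.22 to 0.18, while all male arrays at 10 lay below the controls. In males it fell by 0.31 at 10 (adjusted p 0.0326 by limma). That call was lost without control replicate 1 or 3 or without replicate 10 or 11 at 10, with differences from -0.36 to -0.25. It was kept in 4 of 13 other settings, and was lost in the mean over the gene's 2 probe sets. Probe set 1389377_at gave 0.026 in females and -0.083 in males, with intervals of -0.13 to 0.18 and -0.24 to 0.076. The difference between the sexes on 1393690_at, -0.29, was not called (adjusted p 0.256). The 2 Insig genes were not tested against each other.

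Srebf2 gave different answers on its 2 probe sets. Probe set 1371979_at read -0.44, -0.26 and -0.053 in the controls, -0.097, 0.087 and 0.18 at 0.1 µg/kg/day, 0.041, -0.026 and 0.055 at 1, and 0.00081, 0.16 and 0.20 at 10 in males. In females it read 0.018, 0.083 and 0.32 in the controls, -0.26, 0.11 and 0.25 at 0.1 µg/kg/day, -0.081, 0.088 and -0.14 at 1, and -0.16, 0.012 and -0.12 at 10. All male arrays at 10 were above all controls, and all female arrays at 10 were below all controls. The male rise of 0.37 was called (adjusted p 0.0434 by limma). That call was lost without control replicate 1 or 2 or without replicate 11 or 12 at 10, with differences from 0.28 to 0.47. It was kept in 5 of 13 other settings, and was lost in the mean over the gene's 2 probe sets. The female difference was -0.23, and the difference between the sexes, 0.60, had an adjusted p of 0.0871. Probe set 1377489_at differed by 0.040 and -0.18, and the 2 probe sets did not follow each other across arrays within groups (r = -0.10). Scap differed by 0.041 and -0.037 in females and -0.0099 and 0.19 in males, with no call.

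**Figure D2:**
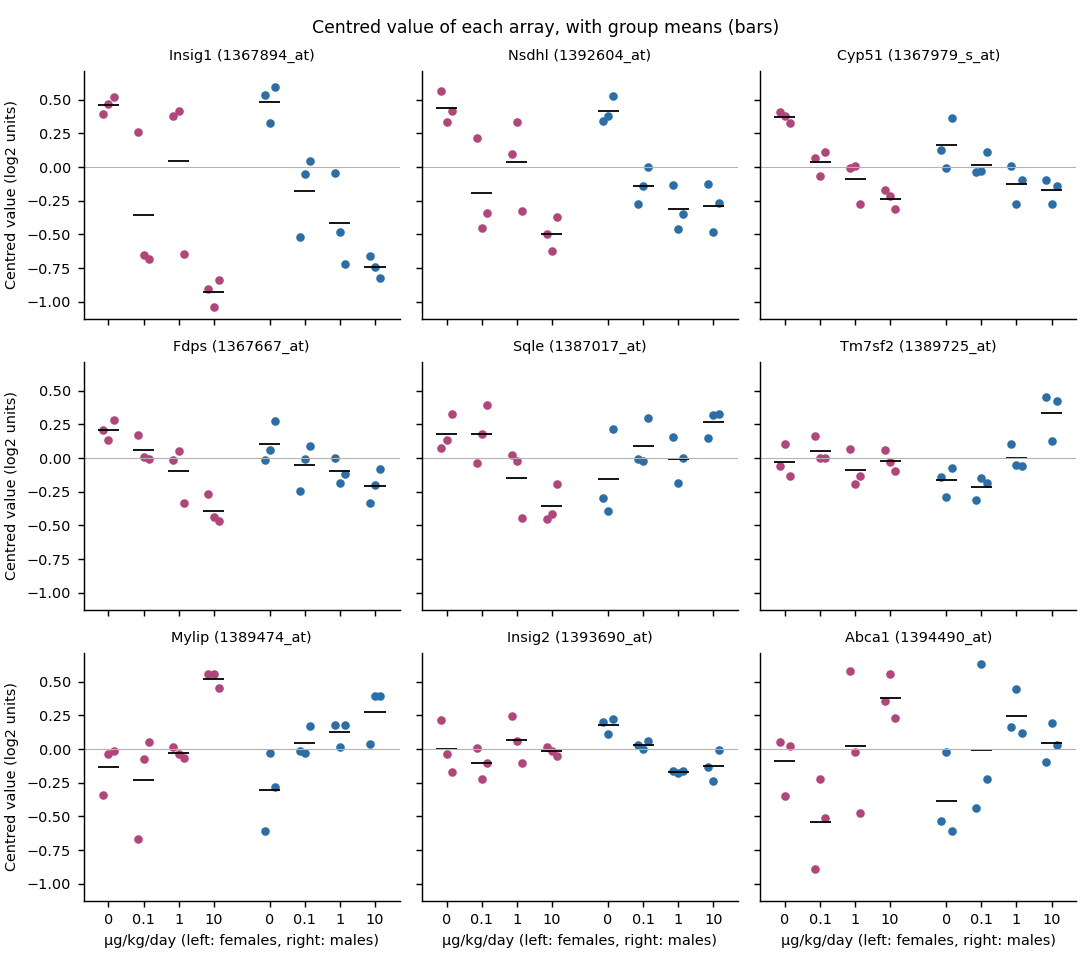
Centred value (log2 units) of each array for 9 probe sets, by sex and dose in µg/kg/day, with bars at the group means. Insig1, Nsdhl, Cyp51 and Fdps are lower at 10 than in the controls in both sexes, though the male fall of Fdps was not called; Sqle is below the controls at 10 in females and mostly above them in males, Tm7sf2 rises in males, Mylip is high at 10 in both sexes, and the female Insig2 values overlap between 0 and 10.

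Beside the falls in synthesis genes, Mylip rose. Mylip is a ubiquitin ligase that marks the LDL receptor for breakdown and so limits uptake. In females it read -0.34, -0.039 and -0.016 in the controls, -0.67, -0.070 and 0.054 at 0.1 µg/kg/day, 0.016, -0.036 and -0.067 at 1, and 0.56, 0.56 and 0.45 at 10. In males it read -0.61, -0.030 and -0.28 in the controls, -0.015, -0.031 and 0.17 at 0.1 µg/kg/day, 0.18, 0.015 and 0.18 at 1, and 0.038, 0.39 and 0.39 at 10. The female arrays at 10 lay above every other female array, as the plot of array values shows, and male arrays at 10 lay above all male controls. The rise was 0.65 ± 0.16 in females (adjusted p 0.0396) and 0.58 ± 0.16 in males (adjusted p 0.0172), by limma. Both calls were fragile to the arrays kept: that of females was lost with any of the 6 arrays left out (0.55 to 0.71), and that of males without control replicate 1 or without replicate 11 or 12 at 10 (0.43 to 0.72). With the actin covariate the male difference was 0.098 (adjusted p 0.808).

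The exporters Abca1 and Abcg1 varied widely between arrays. Abca1 probe set 1394490_at read 0.056, -0.35 and 0.024 in the controls, -0.89, -0.23 and -0.51 at 0.1 µg/kg/day, 0.58, -0.024 and -0.48 at 1, and 0.36, 0.56 and 0.23 at 10 in females. In males it read -0.53, -0.019 and -0.61 in the controls, -0.44, 0.63 and -0.22 at 0.1 µg/kg/day, 0.17, 0.44 and 0.12 at 1, and -0.096, 0.19 and 0.033 at 10. Females at 10 lay above their controls, yet arrays at 0.1 and 1 spanned from -0.89 to 0.58. The 4 Abca1 probe sets differed by 0.22 to 0.54 in females and 0.20 to 0.48 in males, and none was called. Abcg1 probe set 1368103_at read 0.11, 0.0012 and 0.057 in the controls, -0.83, 0.14 and 0.021 at 0.1 µg/kg/day, -0.047, -0.027 and -0.14 at 1, and -0.50, 0.18 and -0.12 at 10 in females. In males it read 0.063, 0.064 and -0.41 in the controls, -0.032, -0.051 and 0.14 at 0.1 µg/kg/day, 0.074, -0.26 and -0.040 at 1, and -0.18, 0.19 and 0.055 at 10. The groups at 0 and 10 overlapped in both sexes, and the 3 probe sets differed by -0.22 to -0.035 in females and -0.13 to 0.12 in males, with no call. The 95% intervals for these 2 probe sets were -0.076 to 1.02 and -0.62 to 0.22 in females.

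Other transport and storage genes gave 1 call. Soat1, which esterifies cholesterol for storage, fell in males on probe set 1369002_at by 0.35 (adjusted p 0.0478), a call lost with any of its 6 arrays left out (-0.43 to -0.30); the other probe set differed by 0.0044. Scarb1, the HDL receptor, differed by 0.38 and 0.30 in females and by -0.43 and -0.096 in males. On 1367855_at it read -0.21, -0.27 and -0.44 in the controls and 0.21, 0.11 and -0.10 at 10 in females and 0.020, 0.23 and 0.39 in the controls and -0.50, -0.023 and -0.13 at 10 in males. The groups did not overlap in either sex and lay in opposite order, and the difference between the sexes of -0.81 was not called (adjusted p 0.123). Stard4, a cytosolic sterol carrier, differed by -0.38 to -0.12 over its 3 probe sets in females and -0.047 to 0.039 in males. Npc2, which hands sterol out of the lysosome, differed by -0.077 and -0.17.

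Lower doses gave few calls. At 1 µg/kg/day in males 4 member probe sets were called, 7.55%, where 3.63% of all probe sets were called in either direction. All 4 fell: Pmvk, both probe sets of Nsdhl and 1393690_at of Insig2. The share of all probe sets that fell in this comparison is not given here. Nsdhl differed there by -0.73 (adjusted p 0.0209) and -0.69 (adjusted p 0.0313), and Insig2 by -0.35 (adjusted p 0.0478). At most 1 of the 4 was called when any single array of these groups was left out, and 0 without the arrays of high hepatocyte signal. The white adipocyte markers fell in 15 of 25 probe sets in that comparison. Insig1 at 1 in males differed by -0.90, with an adjusted p of 0.0551.

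No member passed limma's threshold at 1 in females, at 0.1 in either sex, or between 10 and 1 in either sex. The share of all probe sets called was 0% at 1 in females, 0% at 0.1 in females, 0% at 0.1 in males, 0.267% for 10 against 1 in females and 0.387% for 10 against 1 in males. At an unadjusted p under 0.05, 8 of 53 members were lower and 0 higher at 1 in females, where 1.85% of all probe sets were lower and 0.879% higher. At 0.1 in females 10 were lower and 0 higher, with 6.12% and 3.81% of all. At 0.1 in males 7 were lower and 4 higher, with 6.63% and 5.3% of all. For 10 against 1, 9 were lower and 2 higher in females, with 4.21% and 5.9% of all, and 3 were lower and 1 higher in males, with 5.43% and 3.98% of all. Without replicate 4 of the females at 0.1, 4 members were called at that dose. Without replicate 9 of the females at 1, 2 were called for 10 against 1. The shares of all probe sets in these fits are not given here. That replicate 9 had the lowest synthesis mean of all female arrays, -0.24. Its fatty acid synthesis mean was -0.79, its adipocyte mean -0.27 and its skeletal muscle mean 1.46. The part of these in its values was not tested.

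The synthesis medians at 0.1, 1 and 10 against the shared controls were -0.14, -0.21 and -0.27 in females and -0.10, -0.18 and -0.22 in males. Those of the handling probe sets were -0.080, -0.0034 and -0.016 in females and 0.055, 0.019 and 0.0044 in males. Group means fell at every step of dose for 9 of 30 synthesis probe sets in females and 12 of 30 in males, compared with 4.37% and 14.1% of all probe sets. All 3 doses lay below the controls for 22 synthesis probe sets in females and 18 in males, compared with 27.6% and 37.1% of all probe sets. In the handling genes the falls at every step numbered 4 of 23 in females and 2 of 23 in males. The 3 comparisons of a sex share its control arrays, so these are descriptions and were not tested.

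**Figure D3:**
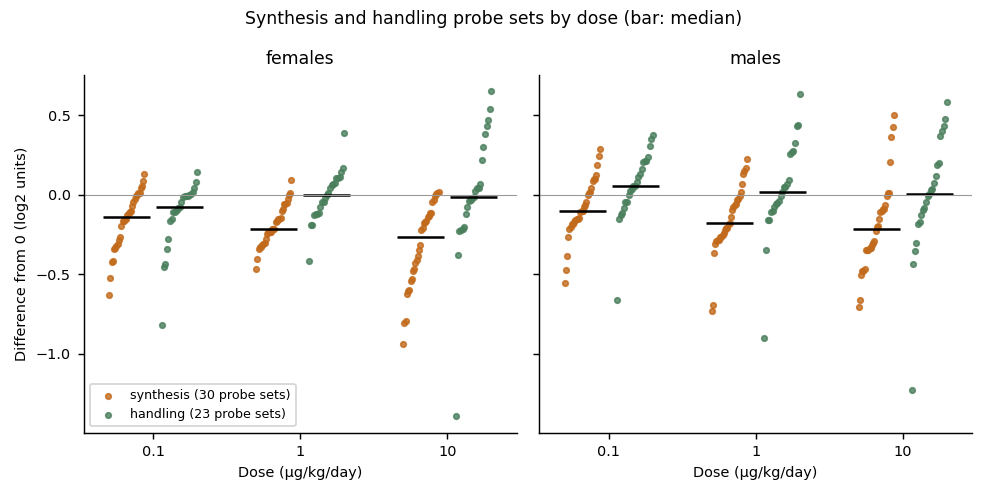
Difference from the controls (log2 units) at each dose in µg/kg/day, with 1 point for each of the 30 synthesis and 23 handling probe sets and bars at the medians, females on the left and males on the right. The synthesis medians lie below 0 at all doses, from -0.10 to -0.27, and the handling medians between -0.080 and 0.055; the lowest handling point is Insig1.

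The plot by dose shows the synthesis points mostly below 0 at each dose and the handling points on both sides of 0. In the comparison of 10 with 0, 23 of 30 synthesis probe sets lay below 0 in both sexes, 2 above 0 in both and 5 on opposite sides, or 16.7%; opposite signs were found for 46.4% of all probe sets. Among handling probe sets 13 of 23 had opposite signs. The probe sets that fell in both sexes were Insig1, both of Nsdhl, 1367839_at of Fdft1 and 1367979_s_at of Cyp51, and the one that rose in both was that of Mylip. Across the 53 member probe sets the female and male differences had r = 0.63, and across all probe sets r = 0.20; probe sets of a gene are not independent, and both control groups held arrays with hepatocyte transcripts. The median difference between the sexes was 0.18 over the synthesis probe sets, and the median over all probe sets is not given here. For 20 of 30 the female difference was below the male one, which counts some that lay above 0 in both sexes. That count was not made over all probe sets. Apart from Sqle no member differed between the sexes by the test.

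Other genes around the pathway were taken from 2 lists. Of 28 probe sets for 20 other sterol-related genes, 0 were called in females at 10, where 1.86% of all probe sets were called. At an unadjusted p under 0.05, 2 were lower and 2 higher, and the share of all at that limit is not given here. In males 8 fell and 3 rose, where 9.64% of all probe sets fell and 7.81% rose. Those that fell in males included all 3 probe sets of Cav1, a coat protein of membrane pits abundant in fat cells, from -2.02 to -0.82, and Nr1h3, a liver X receptor, at -0.61. Nceh1, which frees cholesterol from its esters, rose by 0.90 in males. Of 26 probe sets for 15 fatty acid synthesis genes, 2 fell and 0 rose in females, with a median of -0.60. In males 7 fell and 1 rose, with a median of -0.63. Of all probe sets in females, 1.05% fell and 0.812% rose. Acss2, which makes acetyl-CoA from acetate, fell by 1.04 in females and 0.90 in males. Scd2, a fatty acid desaturase, fell by 0.61 in females and rose by 0.86 in males on 1 of its 4 probe sets, and this difference between the sexes of 1.46 was called (adjusted p 0.000652 by limma). Srebf1 differed by 0.14 and 0.12 in females on its 2 probe sets and by -0.70 and -0.15 in males, where the first was called.

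**Figure D4:**
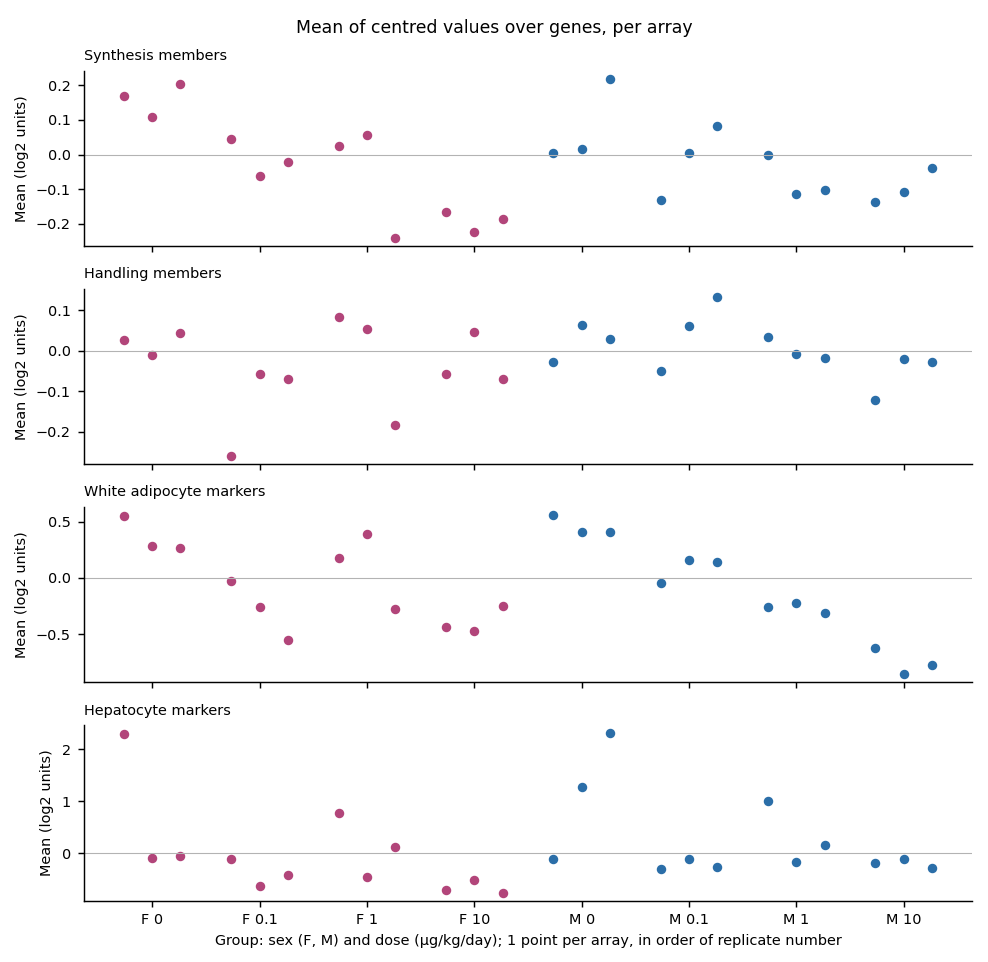
Mean of the centred values (log2 units) over the synthesis members, handling members, white adipocyte markers and hepatocyte markers, with 1 point for each of the 24 arrays, by sex (F, M) and dose in µg/kg/day. The synthesis and adipocyte means are both lower at 10 than in the controls in each sex, and 3 control arrays stand apart on the hepatocyte markers.

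As the plot of array means shows, the mean over the synthesis genes was 0.17, 0.11 and 0.20 in the female controls and -0.17, -0.22 and -0.19 at 10, without overlap. In males it was 0.0042, 0.015 and 0.22 in the controls and -0.14, -0.11 and -0.040 at 10, also without overlap. The means over the handling genes overlapped between 0 and 10 in both sexes, for example from -0.010 to 0.045 in the female controls and from -0.070 to 0.047 at 10.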

How the data were processed

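RNA of 24 rat mammary gland samples was hybridised to Affymetrix arrays, and per the submitters' processing notes GCOS, the array maker's software, was used in some step that is not stated. The deposited values are signed and on a log scale, read here as log2, for 31099 probe sets. How they were summarized, normalized and centred, and in which log base, is not given in the sources used here, so fold changes depend on that choice. The values nearest 0 on either side were equal and opposite (tolerance 2e-06) in 45.3% of probe sets for female and 41.9% for male arrays, a sign of centring within each sex; the other probe sets have no such pair, and the centre may have been taken over more arrays than those analysed here. Array medians lay between -0.018 and 0.013, 0 pairs of arrays were identical, and no further scaling was applied. The number of arrays limits the precision.

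Groups were taken from the sample titles. After 57 control probe sets were left out, limma 3.58.1 in R 4.3.3 fitted 8 group means to all 31042 probe sets (16 residual degrees of freedom), with Benjamini-Hochberg adjustment over all of them and a threshold of 0.05; 95% intervals come from the same fit. The procedure was tested on simulated data with independent noise for each probe set. These held no outlying arrays and no shift in cell types, so the test does not cover those. Genes came from GEO's platform annotation: 20826 probe sets had 1 gene symbol, 436 several and 9780 none, and only those with 1 were named. The members, gene lists, markers and tests were chosen with earlier results of these data known. Members called in any of 9 comparisons were given in full, at most 14 by size, with Insig1, Insig2, Srebf2, Abca1 and Abcg1 always given; 18 members had a call. Values of Ggps1 and Soat1, outside that limit, are given by difference only. Replicate numbers are shared by the sexes but do not pair the arrays (r from -0.48 to 0.59 over 12 pairs). Alternatives covered the arrays kept, covariates, weights, normalization, filtering, probe set averaging, the variance prior and the replicate block. Background correction and a filter on dim probes could not be varied on centred values. Promoters were matched by symbol for 23 of 29 genes.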

Additional observations from a re-analysis of the deposited data

Results flagged for a closer look

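Sqle, squalene epoxidase, is the 1 member whose response to 10 µg/kg/day differed between the sexes by a test of the difference itself. Of all probe sets 1.28% were called in that comparison, and 1 call among 53 member probe sets was near that share. Neither sex's own change was called. The difference between the sexes was 0.95 on the log2 scale (SE 0.22, 95% interval 0.48 to 1.42, limma adjusted p 0.0414), from -0.53 in females and 0.42 in males. All 3 female arrays at 10 were below the female controls, and 2 of 3 male controls were below all male arrays at 10. The call was lost in 10 of 12 fits that left out an array and in 6 of 13 other settings, and the value stayed between 0.79 and 1.14 throughout.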

How the results depend on the processing

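The number of member probe sets called out of 53 at 10 against 0 was 11 in females and 14 in males. In females it was 6 with only the compared groups in the fit, 4 and 2 without arrays of a hepatocyte mean above 1 or above 0.5, 7 with hepatocyte and muscle covariates and 0 with the adipocyte covariate; 8 of 13 settings stayed within 1.5 times. In males it was 8 with only the compared groups, 8 and 6 without the hepatocyte arrays, 9 without the 2 widest arrays, 6 with hepatocyte and muscle covariates, 0 with the adipocyte covariate, 1 with the actin covariate, 23 with array weights, 8 with quantile normalization and 9 with probe sets averaged by gene. At 1 against 0 in males, 4 became 0 without the hepatocyte arrays at either limit, 2 with hepatocyte and muscle covariates, 0 with the adipocyte covariate and 11 with array weights. At 0.1 against 0, 0 in females became 1 without the widest arrays and 9 with weights, and 0 in males became 3 with the actin covariate and 1 with weights. For 10 against 1 in females, 0 became 1 without the widest arrays and 1 with weights. For the sex difference, 1 became 2 without arrays of a hepatocyte mean above 1, 3 with hepatocyte and muscle covariates, 6 with weights, and 0 without the widest arrays, with the adipocyte or actin covariate, with quantile normalization or with averaging by gene. The cause of these moves was not tested. Shares of all probe sets called are given above for some settings only, and for no fit that left out an array. The other counts cannot be set against the background. The limit of 0.5 and the widest arrays were chosen after seeing the data. The 2 widest arrays were replicate 4 of the females at 0.1 and replicate 1 of the male controls. Without the hepatocyte arrays, at either limit, that replicate 1 was the only male control left.

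With each array left out in turn, the counts ranged from 5 to 9 in females and 6 to 13 in males at 10 against 0, 0 to 2 and 0 to 0 at 10 against 1, 0 to 0 and 0 to 1 at 1 against 0, 0 to 4 and 0 to 0 at 0.1 against 0 (females then males), and 0 to 1 for the sex difference. With the replicate block the counts were 11 in females and 14 in males at 10 against 0, 4 in males at 1 against 0, 0 in the other comparisons within a sex, and 2 for the sex difference; the numbers do not pair the arrays.

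With the adipocyte covariate the sign turned in males at 10 against 0 for Nsdhl 1392604_at (0.42) and 1392988_at (0.54), Dhcr7 (0.11), Insig1 (0.48), Insig2 1393690_at (0.082) and Mylip (-0.18), and at 1 against 0 for Nsdhl 1392988_at (0.026); none was then called. Of the calls at 10 against 0, 5 of 11 in females and 6 of 14 in males held with every array left out, and 0 held under every setting.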
